A study of Mus musculus with 2 samples.

Results

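Natural killer (NK) cells were examined in liver metastases of BALB/c mice, female and 6 to 8 weeks old. The metastases grew from the mouse breast cancer line 4T1, which is triple-negative (without oestrogen and progesterone receptors and HER2). They are the 82 cells to which the depositors gave the type label NK Cells, of 44371 cells in all, and they fall into 45 cells of the control library and 37 cells of the silenced library. In the control group (shSCR) the injected 4T1 cells carried a scrambled short hairpin RNA. In the other group (shZdhhc17) they carried a hairpin against Zdhhc17, the gene of an enzyme that attaches palmitate to proteins. Both hairpins came from puromycin-selected lentiviral vectors, so the engineered cells were the cancer cells and the NK cells belonged to the mouse. In both groups 250000 cells were injected into the spleen, the spleen was then taken out, and metastases were dissected on day 14. Cells from 3 dissociations were pooled in equal number per group before capture in a single BD Rhapsody microwell library, so no cell can be traced to its mouse. With 1 library per group no test between the groups was possible, and every interval given here covers counting error only.

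NK cells are innate lymphocytes that kill tumour and infected cells without prior sensitisation. They weigh activating signals, from receptors such as NKp46, against inhibitory signals from receptors that bind MHC class I molecules, and kill by releasing perforin and granzymes. The liver is rich in NK cells and in the closely related type 1 innate lymphoid cells, and NK cells are known to restrain metastasis. They share much of their killing machinery with CD8 T cells, which makes the 2 types hard to separate by RNA alone.

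The label was not checked against marker levels, since expression values per gene were not analysed here. The deposited gene table, which lists 28523 genes, holds all 6 NK markers looked up, which says nothing of their level in these 82 cells. The first is Ncr1, which encodes the activating receptor NKp46 (ENSMUSG00000062524.4, protein-coding, GRCm38 chromosome 7, 4337724 to 4345164, plus strand). Nkg7, which encodes a cytotoxic granule protein, lies on the same chromosome (ENSMUSG00000004612.9, 43437073 to 43438249, plus strand). Gzma, which encodes the serine protease granzyme A, lies on chromosome 13 (ENSMUSG00000023132.8, 113093825 to 113100981, minus strand). Klrb1c, which encodes the receptor NK1.1 in some strains, and Klrd1, which encodes CD94, both lie on chromosome 6, and Eomes, which encodes a T-box transcription factor of NK cells, lies on chromosome 9.

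The control library held 22860 cells and 214842365 UMIs (unique molecular identifiers, which count captured RNA molecules), and the silenced library held 21511 cells and 172527305 UMIs. NK cells supplied 115025 of these UMIs in shSCR (0.0535% of the library) and 74906 in shZdhhc17 (0.0434%). Of the 609 cell barcodes found in both libraries, 1 belonged to an NK cell, in shZdhhc17.

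NK cells were rare in both libraries, and their share did not differ beyond counting error. They made up 0.197% of the shSCR library (exact 95% interval 0.144 to 0.263) and 0.172% of the shZdhhc17 library (0.121 to 0.237). The ratio of shZdhhc17 to shSCR was 0.874, with a counting interval of 0.566 to 1.35. Differences within that interval were not detectable at this depth. Of the 17 annotated types, only cholangiocytes and hepatocytes had fewer cells.

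The direction of the small difference turned with the denominator. Among cells other than cancer cells, NK cells were at 0.27% in shSCR (0.197 to 0.361) and 0.272% in shZdhhc17 (0.192 to 0.375), a ratio of 1.01. Among immune cells they were at 0.315% and 0.333% (ratio 1.06, 0.685 to 1.63). Among lymphocytes, taken as NK, T and B cells, they were at 6.53% and 5.27% (ratio 0.807, 0.529 to 1.23). The intervals of the 2 libraries overlapped with each of these denominators.

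**Figure D1:**
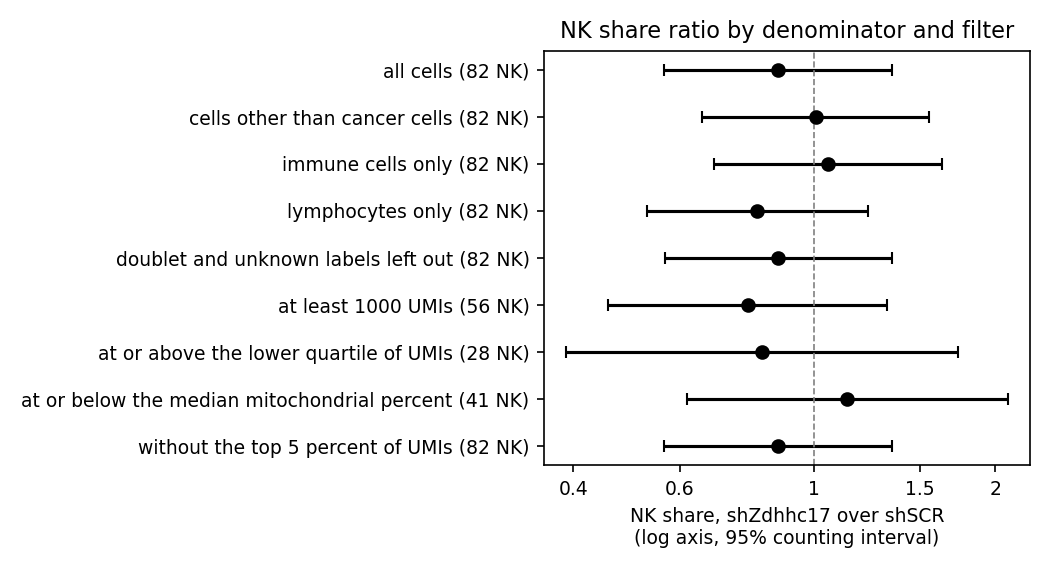
Ratio of the NK share in the shZdhhc17 library to that in the shSCR library (x axis, logarithmic) for each denominator or cell filter (y axis, with the number of NK cells left). Points are ratios and bars 95% counting intervals; the ratios lie between 0.778 and 1.14 and each bar crosses 1.

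Against T cells, the type nearest to them, NK cells stood at 10.7 per 100 T cells in shSCR (7.66 to 14.5, 45 NK and 422 T cells). They stood at 9.87 per 100 T cells in shZdhhc17 (6.84 to 13.9, 37 NK and 375 T cells). The ratio was 0.925 (0.586 to 1.46), and the intervals overlapped.

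On the deposited embedding, a UMAP that places cells with like expression near each other, the NK cells did not form an island of their own. Of the 20 nearest cells of each NK cell, 18.3% on average were NK cells and 81.7% were T cells, and none was of another type or a doublet. The nearest cell of all was an NK cell for 14 of the 82 and a T cell for 68. NK cells made up 9.33% of the NK and T cells together. In the other 16 types the share of own-type neighbours ran from 92.2% for T cells to 100% for 7 types. The 2 types with fewer cells than NK cells, hepatocytes (54 cells) and cholangiocytes (25 cells), were both at 100%. By library the NK share of neighbours was 19.2% in shSCR and 17.2% in shZdhhc17. The embedding and the labels were made from the same expression data, so these values describe the labels and test nothing.

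**Figure D2:**
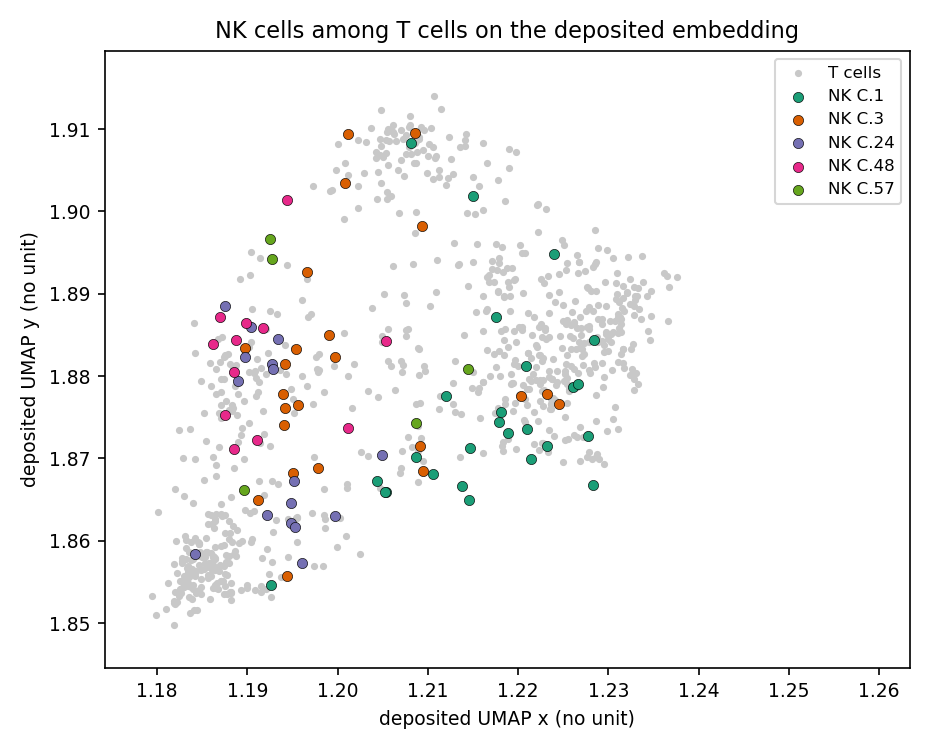
The 82 NK cells, coloured by the authors' cluster, among the 797 T cells (grey) on the deposited UMAP coordinates, which have no unit. NK cells lie scattered among T cells; C.1 cells lie mostly to the right and C.24 and C.48 cells to the left.

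The genes behind the embedding give one measured fact beside this. The authors built it from the 1000 most variable genes, 3.51% of the gene table. Of the 6 NK markers, 3 were among them (Nkg7, Gzma and Klrd1), while Ncr1, Klrb1c and Eomes were not. Of 11 T cell markers, 10 were among them, including Cd3e, Cd3g, Trac, Cd4 and Cd8a. Nkg7, Gzma and Klrd1 are also known from CD8 T cells. The part of gene selection in the mixing of NK and T cells was not tested.

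The authors reached the NK label in 2 rounds. All 82 NK cells came from 2 clusters of the first round, numbers 24 and 39, which held 879 cells, and the other 797 were all labelled T cells. Reclustering split the 879 cells into 58 small clusters, of which 5 were labelled NK and 53 T, and no cluster held both labels. The NK clusters were C.1 with 26 cells, C.3 with 23, C.24 with 16, C.48 with 12 and C.57 with 5. C.1 was the largest of the 58, and the T cell clusters held 5 to 25 cells.

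Most NK cells came from initial cluster 39. It held 33 of 45 NK cells in shSCR (73.3%, exact 95% interval 58.1 to 85.4) and 24 of 37 in shZdhhc17 (64.9%, 47.5 to 79.8), with overlapping intervals. Initial cluster 24 held the rest, 26.7% and 35.1%. The T cells of the 2 libraries differed beyond counting error, which is no test between the groups. Cluster 24 held 40.5% of T cells in shSCR (35.8 to 45.4) and 69.1% in shZdhhc17 (64.1 to 73.7), with separate intervals and a ratio of 1.70 (1.49 to 1.95). The same ratio for NK cells was 1.32 (0.686 to 2.53), an interval that includes the T cell value, and the difference between the types was not tested.

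Within shZdhhc17 the share of cells in cluster 24 was lower for NK cells (35.1%, 20.2 to 52.5) than for T cells (69.1%), with separate intervals. Within shSCR the intervals of the 2 types overlapped. Seen from cluster 39, NK cells were at 13.1 per 100 T cells in shSCR (8.86 to 18.9) and 20.7 in shZdhhc17 (12.7 to 32.3). In cluster 24 they were at 7.02 (3.56 to 12.6) and 5.02 (2.64 to 8.74). The intervals overlapped in both clusters. Depth moved with the cluster: T cells had a median of 3121 UMIs in cluster 39 and 1304 in cluster 24 in shSCR, and 1796.5 and 1012 in shZdhhc17. NK cells had 1887 and 1056 in shSCR, and 1470.5 and 885 in shZdhhc17. The part of depth in the cluster shares was not tested.

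**Figure D3:**
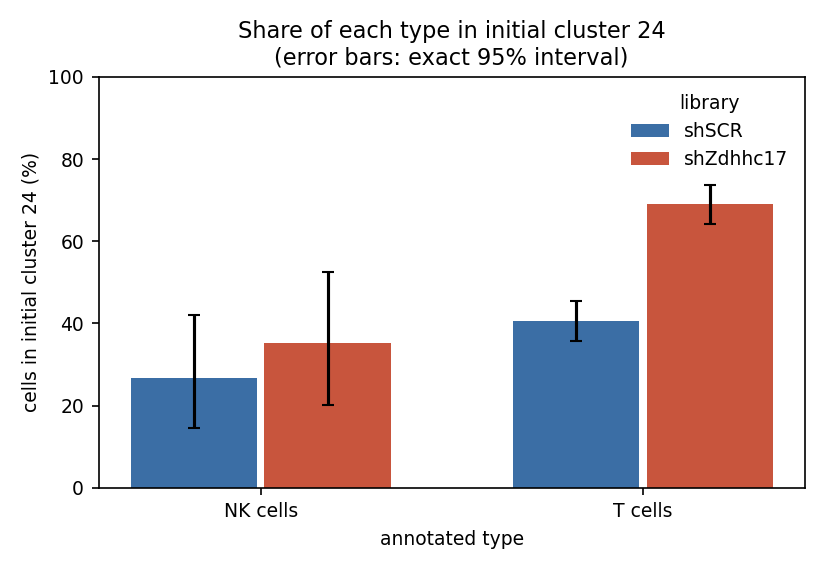
Percent of NK cells and of T cells that the authors' first clustering put in cluster 24 (y axis), by library (colour), with exact 95% intervals as error bars. The T cell bars, 40.5% and 69.1%, have separate intervals, and the NK bars, 26.7% and 35.1%, have overlapping ones.

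The 5 NK clusters were present in both libraries. C.1 held 17 of the 45 shSCR cells (37.8%, 23.8 to 53.5) and 9 of the 37 shZdhhc17 cells (24.3%, 11.8 to 41.2). C.3 held 8 (17.8%, 8.00 to 32.1) and 15 (40.5%, 24.8 to 57.9), a ratio of 2.28 whose counting interval of 1.09 to 4.78 leaves out 1, although the exact intervals of the shares overlap. C.3 was thus by count the most common NK cluster in shZdhhc17, and C.1 in shSCR. C.24 held 10 and 6 cells, C.48 held 8 and 4, and C.57 held 2 and 3. C.3 had the largest ratio of the 5 clusters, and the counting intervals of the other ratios included 1. They were 0.326 to 1.27 for C.1, 0.293 to 1.82 for C.24, 0.199 to 1.86 for C.48 and 0.322 to 10.3 for C.57.

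As shares of all NK and T cells, none of the 5 NK clusters had separate intervals between the libraries. Among all 58 clusters, 9 did (15.5%), all of them T cell clusters, 5 with a larger share in shZdhhc17 and 4 with a smaller one. With 5 NK clusters, a count of 0 beside that background is no result about NK cells.

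Depth per cell split the NK clusters far more than the libraries did. In C.24 the 16 cells had 5797 UMIs and 2171.5 detected genes by the median, and ranged from 1032 to 12777 UMIs. In C.1 the 26 cells had 780.5 UMIs and 590 genes by the median, and ranged from 566 to 2136 UMIs. C.24 held 12 of the 14 NK cells with 4000 UMIs or more, and with 19.5% of the NK cells it supplied 49.6% of their UMIs. C.3, C.48 and C.57 lay between, with medians of 1312, 1797.5 and 1193 UMIs. No doublet caller was run, so the part of doublets in these UMI counts was not tested.

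By library, C.24 had medians of 5797 UMIs in shSCR (1032 to 12777, 10 cells) and 5600 in shZdhhc17 (2107 to 10306, 6 cells), and their ranges overlapped widely. C.1 had 934 UMIs in shSCR (594 to 1825) and 694 in shZdhhc17 (566 to 2136). C.3 had 2196.5 UMIs in shSCR (779 to 4146) and 1071 in shZdhhc17 (560 to 2065), the widest gap of the 3 clusters with more than 5 cells in each library. Of the 8 shSCR cells of C.3, 5 lay above all 15 shZdhhc17 cells. C.48 went the other way, with 1631 UMIs in shSCR (677 to 2565, 8 cells) and 2376.5 in shZdhhc17 (792 to 2911, 4 cells).

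**Figure D4:**
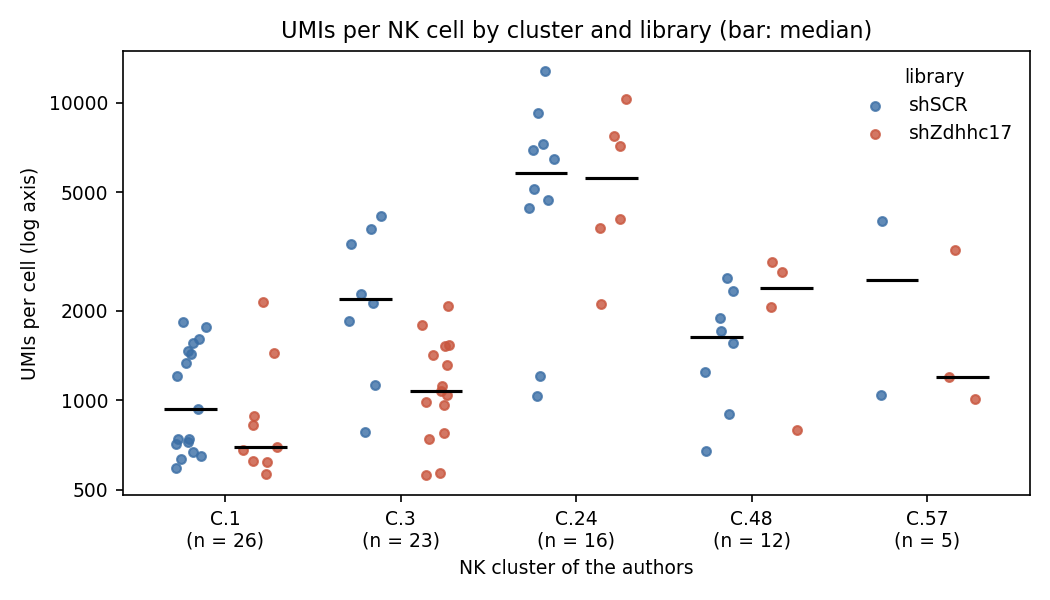
UMIs per NK cell (y axis, logarithmic) in each of the authors' 5 NK clusters (x axis), with 1 point per cell coloured by library and a bar at the median. C.24 lies highest in both libraries, and the C.3 medians of 2196.5 and 1071 UMIs differ more between libraries than those of C.24, 5797 and 5600.

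Over all NK cells, UMIs per cell ran from 594 to 12777 in shSCR, with a median of 1554 (quartiles 934 and 3357). In shZdhhc17 they ran from 560 to 10306, with a median of 1193 (quartiles 792 and 2107). The ranges overlap almost wholly, and the ratio of medians was 0.768. This ratio ranked 11 from the highest among the 17 types. Depth was lower in shZdhhc17 in all 17 types, with a highest ratio of 0.926 in cholangiocytes, so lower depth was not particular to NK cells. T cells had the lowest ratio of all, 0.551, from medians of 2051.5 and 1130 UMIs. NK cells thus had fewer UMIs than T cells by the median in shSCR and slightly more in shZdhhc17. The 95% intervals of the medians overlapped in both libraries. In shSCR they were 1202 to 2120 for NK cells and 1777 to 2236 for T cells. In shZdhhc17 they were 962 to 1790 and 1048 to 1224. The NK intervals also overlapped between the libraries. B cells were shallower in both libraries, with medians of 944.5 and 839.5.

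NK cells with fewer than 1000 UMIs made up 26.7% in shSCR (14.6 to 41.9) and 37.8% in shZdhhc17 (22.5 to 55.2). For T cells the same shares were 18.5% (14.9 to 22.5) and 40.5% (35.5 to 45.7), with separate intervals. NK cells with 4000 UMIs or more made up 22.2% (11.2 to 37.1) and 10.8% (3.03 to 25.4).

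Detected genes followed depth. NK cells had a median of 914 detected genes in shSCR (438 to 3443) and 749 in shZdhhc17 (403 to 3051). At like depth the gap closed. Among NK cells with 1000 to 2000 UMIs the medians were 840 genes in shSCR (17 cells) and 819 in shZdhhc17 (11 cells), and weighted over 4 classes of UMIs the ratio was 0.985. NK and T cells showed no steady difference in this respect. Within the 4 classes and both libraries, the NK median of detected genes was 0.914 to 1.08 times the T cell median, on both sides of 1.

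The mitochondrial share of UMIs, commonly read as a sign of cell quality in dissociated tissue, differed by the median between the libraries mainly in the shallow NK cells. Over all NK cells it had a median of 6.23% in shSCR (0.257 to 11.4, 45 cells) and 4.47% in shZdhhc17 (0 to 9.60, 37 cells), with overlapping ranges. The 95% intervals of these medians, 4.58 to 6.56 and 2.50 to 6.54, overlapped too. T cells had nearly equal medians of 5.90% and 5.92%, and B cells had 6.54% and 5.40%. A lower median in shZdhhc17 was not particular to NK cells. Basophils (3.13% and 0.485%), erythrocytes (6.08% and 3.41%) and neutrophils (1.72% and 0.656%) also had one. Among NK cells with at least 1000 UMIs the medians were 6.47% in shSCR and 6.54% in shZdhhc17, a difference of 0.06 percentage points. Among those with fewer, they were 3.90% (12 cells) and 1.38% (14 cells), beside 3.11% and 4.50% in T cells of the same depth.

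Most of the low values lay in 2 clusters, C.1 and C.3, which held 13 of the 14 NK cells under 2% over both libraries. The other was a shSCR cell of C.24 at 0.581%. C.1 and C.3 made up 31.7% and 28.0% of all NK cells. They also held most of the NK cells with fewer than 1000 UMIs. In shSCR C.1 and C.3 held 9 and 1 of these 12 cells, and in shZdhhc17 7 and 6 of 14. The part of depth in the low values was not tested. In C.1 the median mitochondrial percent was 5.21% in shSCR and 1.34% in shZdhhc17, and in C.3 it was 6.75% and 2.50%. In C.24 it was 5.63% and 7.76%, and in C.48 6.29% and 7.16%, with the larger value in shZdhhc17 in both. In C.57 it was 4.44% (2 cells) and 2.96% (3 cells). All 10 shZdhhc17 NK cells under 2% mitochondrial UMIs were in C.1 and C.3, with 5 in each.

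Those 10 cells were 27.0% of the NK cells of shZdhhc17 (exact 95% interval 13.8 to 44.1). In the same library 8.80% of T cells (6.13 to 12.1) lay under 2%, with separate intervals. In shSCR the shares were 8.89% of NK cells (2.48 to 21.2) and 11.1% of T cells (8.30 to 14.5), with overlapping intervals. Among shZdhhc17 cells with fewer than 1000 UMIs, 64.3% of NK cells (35.1 to 87.2, 9 of 14) and 17.8% of T cells (12.0 to 24.8, 27 of 152) lay under 2%. At this depth the order in shSCR was the reverse, with overlapping intervals. There 16.7% of NK cells (2.09 to 48.4, 2 of 12) and 38.5% of T cells (27.7 to 50.2, 30 of 78) lay under 2%. The T cell intervals were thus separate between the libraries. The limit of 2% was chosen after the values were seen. With a limit of 1% the shares in shZdhhc17 were 16.2% (6.19 to 32.0) and 4.00% (2.26 to 6.51), with overlapping intervals. With a limit of 3% they were 40.5% (24.8 to 57.9) and 13.6% (10.3 to 17.5), with separate intervals. Among cells with at least 1000 UMIs only 1 of 23 NK cells lay under 2%, and the intervals overlapped. The intervals of NK cells between the libraries overlapped at 2%, over all NK cells and among those with fewer than 1000 UMIs. Since the mice were pooled, a contribution of a single mouse cannot be told apart.

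**Figure D5:**
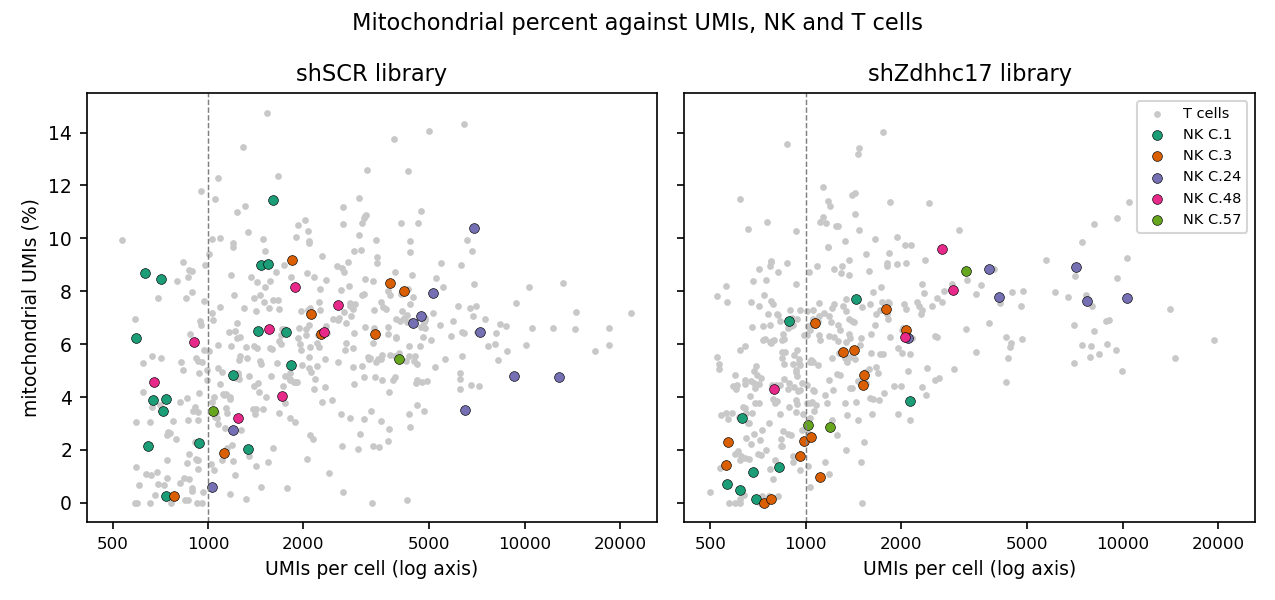
Percent of UMIs from mitochondrial genes (y axis) against UMIs per cell (x axis, logarithmic) for NK cells, coloured by the authors' cluster, and T cells (grey), in each library. Left of the dashed line at 1000 UMIs, 9 of 14 shZdhhc17 NK cells lie under 2%, and 2 of 12 shSCR NK cells do.

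The genes of NK biology were looked up by role in the gene table, whose only measure is the flag for the 1000 most variable genes. The flag was set over all 44371 cells, so it says that a gene varied in this tissue and not that it varied in NK cells, and many of these genes are shared with T and myeloid cells. Of 120 genes in 9 lists, 119 were in the table, and 36 of them carried the flag (30.3%, beside 3.51% of all genes). The lists were chosen as known lymphocyte genes, so a share above the background describes the choice. The counts by role that follow are to be read beside the same 3.51%, and they describe the choice too.

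Of 24 receptor genes of NK cells, 3 carried the flag (12.5%, beside 3.51% of all genes). They were Klrd1, which encodes CD94, Cd226, which encodes the activating receptor DNAM-1, and Slamf7, a self-binding receptor of lymphocytes. Ncr1, Klrb1c, Klrk1 (the stress ligand receptor NKG2D), Klrg1 and all 6 Klra genes listed, which encode receptors of the Ly49 family, did not carry the flag. Whether BALB/c mice carry each of these Klra genes was not checked. Klra genes are near-identical paralogues, which makes the assignment of reads between them uncertain. Of 12 adaptor and signalling genes, 4 carried the flag, namely Cd247 (the CD3 zeta chain), Lat, Lck and Txk, which also act in T cells.

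Of 14 killing genes, 6 carried it. These were Gzma and Gzmb, which encode granzymes, Prf1, which encodes the pore former perforin, Nkg7, Ctsw, a cathepsin of cytotoxic cells, and Srgn, the granule proteoglycan that neutrophils also make. Gzmc, Gzmk and Gzmm, which encode further granzymes, and the death ligand genes Fasl and Tnfsf10 did not. Of 8 cytokine and chemokine genes 5 carried the flag: Xcl1, which draws dendritic cells, Ccl3, Ccl4 and Ccl5, and Tnf. Ifng, the signature cytokine of activated NK cells, did not.

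Among receptors for the cytokines that sustain NK cells, 4 of 12 were flagged. They were Il2rb, the chain shared by the receptors of interleukins 2 and 15, Il2ra, Il7r and Il18r1. Of 13 transcription factors 4 were flagged (Tox, Zeb2, Ets1 and Ikzf2), and Eomes and Tbx21, which define mature NK cells, were not. Of 15 genes of maturation, homing and residence 6 were flagged, among them Itgae, S1pr1, Cxcr6, Ccr2 and Cd69. Of 5 markers of type 1 innate lymphoid cells, 2 were flagged, Cxcr6 and Il7r, both also known from T cells. Whether the 82 cells include type 1 innate lymphoid cells cannot be told from these flags.

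On the side of the cells that NK cells meet, 2 of 17 ligand and signal genes in the table were flagged, Il15 and Il12a, which encode an NK survival cytokine and a subunit of interleukin 12. The MHC class I genes H2-K1 and H2-D1, the NKG2D ligand genes Raet1d, Raet1e, Ulbp1, H60b and H60c, and Pvr, which encodes a ligand of DNAM-1, were not. Of 4 checkpoint receptor genes, Pdcd1 and Ctla4 were flagged and Havcr2 and Lag3 were not. Zdhhc17 itself was in the table without the flag.

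Of the 119 genes, 105 were also in the table of genes detected in neutrophils (88.2%, beside 75.5% of all genes). Ncr1, Nkg7, Gzma, Klrb1c and Klrd1 were among them and Eomes was not, so presence in such a table does not mark NK cells. Among genes of the neutrophil table, 4.64% carried the flag, as did 11 of the 105, including Ccl3, Ccl4, Tnf and Cd69.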

How the data were processed

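The authors used the BD Rhapsody pipeline, corrected the counts for ambient RNA and named types from marker expression, per the file headers. Its version was not given in the sources used here, nor was the ambient correction method. The submitters' processing notes name Seurat 4.1.0, and gene symbols follow GRCm38, per the file headers. The deposited cell table gives UMI and gene counts per cell, the percent of mitochondrial UMIs and UMAP coordinates, a score without unit. The deposited gene tables give flags.

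Every deposited cell had at least 500 UMIs and at most 15.0% mitochondrial UMIs. Doublet and unknown labels stayed in the denominator, and no doublet caller was run. Cells were grouped by library. Shares have exact (Clopper-Pearson) 95% intervals and ratios log-normal ones. Medians have 95% intervals from the exact binomial. Intervals of shares, of ratios of shares and of medians were tested on simulated data. Shares and their ratios were simulated only with denominators near the size of a library. Denominators as small as the NK cells of a library were not simulated for them. The counting interval of the ratio of NK to T cells has its own formula, which was not simulated. Shares are called lower or higher where intervals did not overlap, which concerns counting error only and is no test between the groups. A count of 0 allows up to 0.0131% of the shSCR library and 0.0139% of shZdhhc17 (3 cells). Neighbours are the nearest cells by UMAP distance (scipy 1.17.1). Gene positions are from GENCODE M21, on GRCm38. Classes of UMIs begin at 500, 1000, 2000 and 4000. All listed genes were counted. The 3 given markers and flagged list members were named, with some unflagged ones. 1 list member is not reported here. The members and lists were chosen with earlier results of these data known.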

Additional observations from a re-analysis of the deposited data

How the results depend on the processing

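The NK share ratio of 0.874 kept overlapping intervals under all 8 alternatives and ran from 0.778 (at least 1000 UMIs) to 1.14 (at or below the median mitochondrial percent of 5.57%). The ratio of NK to T cells, 0.925, ran from 0.925 to 1.10 under 3. The UMI ratio of 0.768 was 0.718 at or below the median mitochondrial percent, and that of detected genes, 0.819, was 0.954 with at least 1000 UMIs. The mitochondrial difference of -1.76 percentage points was -1.05 by means (5.60% and 4.55%), 0.06 with at least 1000 UMIs and -3.04 without C.24. Leaving out C.24, and the limits on low mitochondrial percent, were chosen after seeing the data. The share of low-mitochondrial NK cells in shZdhhc17, 27.0%, was 16.2% with a limit of 1% and 4.35% with at least 1000 UMIs, both then overlapping T cells, and 40.5% with a limit of 3%, apart from them. The cause was not tested. With 5 or 50 neighbours the NK share was 19.5% or 17.9%. No paired analysis was possible because each group is 1 library. Counts of 45 and 37 cells limit all comparisons.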
